A study of Mus musculus with 7 samples.

Results

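The 37 genes described here make cholesterol and fatty acids, control that synthesis, or move cholesterol out of the cell. They were taken by gene symbol from the non-control probes of a mouse array that carries 34797 gene names, and all 37 have a probe, 55 probes in all. They fall into 17 genes of cholesterol synthesis, 10 of fatty acid synthesis, 6 regulators, and 4 genes of cholesterol export and its nuclear receptors. After a filter on dim probes 35 remained, each well above background on every array, so that none of them entered through a single group. The other two were Scd1, the classical stearoyl-CoA desaturase gene of liver and fat, and Fads2, a fatty acid desaturase gene, and no probe of either was well above background on even 1 array.

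RNA came from naive CD8 T cells of mouse lymph node, sorted for CD8b and low CD44, with 1 array per sample. All mice were heterozygous for OT-1, a transgenic T cell receptor for an ovalbumin peptide, and Rag-/-, so that other receptors are not rearranged. The 3 WT samples carried no further change by their labels. The 4 other samples came from mice that were also Lck-/- and whose inducible Lck had been turned off by taking doxycycline out of the food for 7 days; they are called Lck-off. Lck is the kinase that starts signalling from the T cell receptor. The sources used here do not give the promoter that drives the inducible Lck, the ages of the mice, the diet of the WT mice or whether animals were pooled. Genotype, diet and loss of Lck cannot be told apart, because no Lck-/- group still fed doxycycline was analysed here. By the series design the 3 and 4 samples are biological replicates.

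As background, cells make cholesterol from acetyl-CoA through mevalonate, isoprenoids, squalene and lanosterol, and make fatty acids from the same acetyl-CoA. SREBP transcription factors, held in the endoplasmic reticulum with Scap and the Insig proteins when sterols are plentiful, switch on most genes of both routes when sterols are short. The LXR receptors, which bind oxysterols, switch on the exporters Abca1 and Abcg1. T cells raise the SREBP programme when they are activated and need new membrane, and naive cells run it at a low rate.

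Lck RNA was 8.99, 9.02 and 8.98 on the WT arrays and 8.52, 8.83, 8.60 and 8.55 on the Lck-off arrays, in log2 intensity relative to the 75th percentile of the array, the scale of every level below. The labels do not say whether this probe lies in the disrupted part, so it may check nothing. Of 11 T cell markers all were well above background, among them Cd3e and Cd8b1, while of 7 B cell markers Cd79a and Cd79b were well above background on every array, Blnk on some, and the other 4, Ms4a1, Pax5 and Ebf1 among them, on none. The 75th percentile of intensity was 208 to 243 over the 7 arrays and 42.5% to 48.6% of probes were well above background. The number of arrays limits the precision. In RNA from a sorted population, fewer cells of a type and less RNA per cell cannot be told apart.

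Promoters of 29 of the 37 genes were found in a RefSeq table (GRCm38.p6; 39 windows, as some genes have several starts), and the 250 bases before each start site were searched on both strands for 4 short motifs. The CCAAT box, bound by NF-Y, which acts beside SREBP at sterol genes, was present in 13 of the 14 matched genes of cholesterol synthesis and in 37.5% of all 27025 genes in the table. GGGCGG, bound by Sp1, another partner, was also in 13 of these 14, against 35.4% of all genes. A strict sterol regulatory element, TCACNCCAC, was found for Hmgcs1 alone, and in 1.22% of all genes. The core of the interferon-stimulated response element was found for Ebp alone, and in 3.46% of all genes. None of the 3 matched genes of export and LXR had a CCAAT box in this window. Of the 9 synthesis genes that fell in the test below, 5 were matched and 4 of those held a CCAAT box. Matched genes of cholesterol synthesis that did not pass held it too, among them Mvk with 5 and Hsd17b7 with 3, and only Acat2 lacked it. The 4 windows below belong to genes that passed the test described below, 3 of synthesis and 1 of export. For Hmgcs1 this depended on single arrays. The windows of Dhcr7 and Elovl6, which also passed, are not shown, and that of Elovl6 held none of the 4 motifs. Capitals mark TCACNCCAC and CCAAT in either orientation, which do not overlap each other or GGGCGG in these windows. A match is a description of letters and shows no binding.
Hmgcs1, chr13:119690101-119690350, plus strand: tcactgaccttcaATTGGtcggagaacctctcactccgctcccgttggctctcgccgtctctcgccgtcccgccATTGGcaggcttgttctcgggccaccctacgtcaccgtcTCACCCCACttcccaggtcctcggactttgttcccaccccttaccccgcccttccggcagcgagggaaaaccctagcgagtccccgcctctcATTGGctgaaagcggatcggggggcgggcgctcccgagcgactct
Idi1, chr13:8885356-8885605, plus strand: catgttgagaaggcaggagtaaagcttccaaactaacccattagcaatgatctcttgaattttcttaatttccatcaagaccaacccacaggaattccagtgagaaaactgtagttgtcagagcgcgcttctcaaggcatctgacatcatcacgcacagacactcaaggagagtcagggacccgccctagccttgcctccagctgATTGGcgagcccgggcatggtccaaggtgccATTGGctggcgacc
Cyp51, chr5:4104698-4104947, minus strand: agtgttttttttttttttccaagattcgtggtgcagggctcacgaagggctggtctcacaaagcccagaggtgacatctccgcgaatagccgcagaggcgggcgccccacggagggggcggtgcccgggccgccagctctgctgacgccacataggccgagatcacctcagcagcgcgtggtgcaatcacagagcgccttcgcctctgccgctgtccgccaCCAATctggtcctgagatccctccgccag
Abca1, chr4:53159896-53160145, minus strand: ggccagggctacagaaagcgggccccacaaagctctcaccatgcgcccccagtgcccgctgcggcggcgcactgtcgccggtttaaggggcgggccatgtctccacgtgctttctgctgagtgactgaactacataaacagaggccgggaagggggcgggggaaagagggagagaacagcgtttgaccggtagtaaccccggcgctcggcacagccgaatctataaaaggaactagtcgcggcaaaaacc
The Hmgcs1 window held the sterol element 137 bases before the start and 3 CCAAT boxes, that of Idi1 2 CCAAT boxes, that of Cyp51 1, and that of Abca1 none.

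Part of the synthesis genes were lower in Lck-off cells and both exporters were higher. Of the 25 measured genes of synthesis 9 fell, 0 rose and 16 did not pass the test, a limma fit to 18231 genes with an adjusted p under 0.05. At an unadjusted p under 0.05 limma gave 11 lower and 0 higher, where 11.5% and 9.94% of all genes were so. With the adjusted p, across all genes, 4.57% were called lower and 3.80% higher. The median difference of the 25 genes was -0.20 (Lck-off minus WT, log2), or 87.1% of the WT level, with 21 of 25 below 0, beside a median of -0.01 over all genes. Among the 4 genes of export and LXR, Abca1 and Abcg1 rose and the receptors Nr1h2 and Nr1h3 did not pass. None of the 6 regulators passed in limma, although 2 of them, Srebf2 and Stard4, had an unadjusted p under 0.05. For each of the 11 called members the WT and Lck-off values were fully separate. Over all 35 members 13 had every Lck-off array below every WT array and 2 had every one above, where 12.0% and 9.80% of all genes did so. The count of members that fell depended on single arrays. With WT replicate 1 left out it was 5, with replicate 2 left out 4 and with replicate 3 left out 5. For Lck-off replicates 1 to 4 in turn it was 8, 6, 5 and 5, while 2 rose in each of these repeats. The count over all genes dropped too, from 834 lower with all arrays. It was 540, 473 and 504 without WT replicates 1 to 3, and 759, 708, 515 and 497 without Lck-off replicates 1 to 4. Over all genes 449 to 646 rose in these repeats, against 693 with all arrays.

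**Figure D1:**
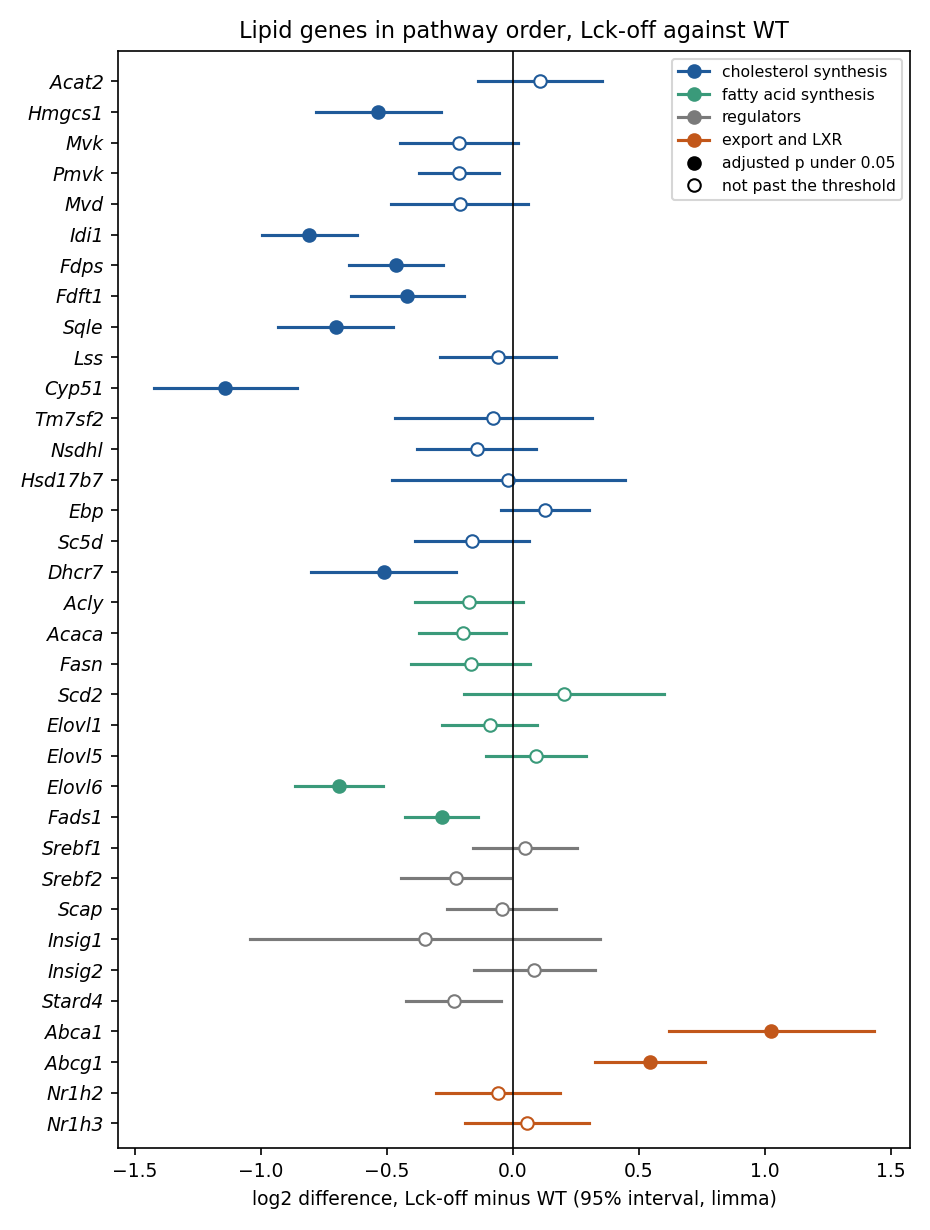
Log2 difference (Lck-off minus WT, x axis) of the 35 measured genes in pathway order (y axis), with 95% intervals from limma over 3 WT and 4 Lck-off arrays; filled points have an adjusted p under 0.05. Cyp51 lies farthest to the left at -1.14 and Abca1 farthest to the right at 1.03. The regulators have open points from -0.35 for Insig1 to 0.09 for Insig2, and the intervals of Srebf2 and Stard4 lie below 0.

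Cholesterol synthesis begins with acetyl-CoA, which Acat2 and Hmgcs1 join into HMG-CoA. Hmgcs1 was 3.73, 3.80 and 3.62 on the WT arrays and 3.36, 3.00, 3.27 and 3.10 on the Lck-off arrays. Every Lck-off array lay below the lowest WT array. The difference was -0.53 (SE 0.11, adjusted p = 0.0232), or 69.0% of WT (95% interval 58.1% to 82.0%). Acat2, the cytosolic thiolase gene, had a difference of 0.11 and its groups overlapped. The kinases and decarboxylase that turn mevalonate into an isoprenoid, Mvk, Pmvk and Mvd, had differences of -0.21, -0.21 and -0.21 and none passed (adjusted p = 0.280, 0.113 and 0.364). Mvk and Pmvk nevertheless had every Lck-off array below every WT array, by a gap of 0.02 for Mvk and 0.09 for Pmvk.

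Idi1 makes the reactive isoprenoid from which all later intermediates are built. It was 1.71, 1.73 and 1.74 for WT against 0.94, 0.76, 1.03 and 0.93 for Lck-off. The WT arrays had an SD of 0.02 and the groups were far apart. Idi1 fell by 0.81 (SE 0.08, adjusted p = 0.00149), to 57.1% of WT (50.1% to 65.0%). Fdps joins isoprenoids into farnesyl pyrophosphate, which also feeds protein prenylation. It went from 3.59, 3.81 and 3.68 to 3.14, 3.25, 3.29 and 3.23, and fell by 0.47 (SE 0.08, adjusted p = 0.0128). Fdft1, squalene synthase, commits farnesyl groups to sterols. Its values were 1.07, 1.16 and 1.22 for WT against 0.90, 0.56, 0.69 and 0.77 for Lck-off, with Lck-off replicate 1 the nearest to WT. It fell by 0.42 (SE 0.10, adjusted p = 0.0409).

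Sqle, the oxygenase that opens the way to sterol rings and a slow step of the pathway, was 2.48, 2.49 and 2.29 for WT against 1.83, 1.69, 1.80 and 1.55 for Lck-off. The gap between the groups was wider than the spread within either. Sqle fell by 0.70 (SE 0.10, adjusted p = 0.00523), to 61.4% of WT (52.4% to 71.9%). Lss, which closes the ring to lanosterol, had a difference of -0.06 with a 95% interval of -0.29 to 0.17. Cyp51, the demethylase that acts on lanosterol, was -0.91, -0.82 and -1.01 for WT against -2.01, -2.09, -1.82 and -2.30 for Lck-off. This was the lowest difference of all 35 members, -1.14 (SE 0.12, adjusted p = 0.00191), or 45.3% of WT (37.3% to 55.1%). Its size depended on the setting, and over all alternatives described below it ran from -1.29 to -0.67.

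After Cyp51 the late pathway genes Tm7sf2, Nsdhl, Hsd17b7, Ebp and Sc5d did not pass. Their differences ran from -0.16 for Sc5d to 0.13 for Ebp. Hsd17b7 varied most of these genes among the Lck-off arrays (SD 0.37, against 0.12 in WT), and its interval of -0.48 to 0.44 reached to both sides of 0. Dhcr7, which makes cholesterol in the last step of one branch, was 0.58, 0.59 and 0.78 for WT against 0.35, 0.21, -0.13 and 0.11 for Lck-off. Each Lck-off value was below each WT value. Dhcr7 fell by 0.51 (SE 0.12, adjusted p = 0.0475), to 70.0% of WT (57.3% to 85.6%). Of the 17 genes of the route 7 fell (41.2%), 5 of them before Lss in pathway order. The group median was -0.21. Whether the genes that passed fell more than those that did not was not tested.

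**Figure D2:**
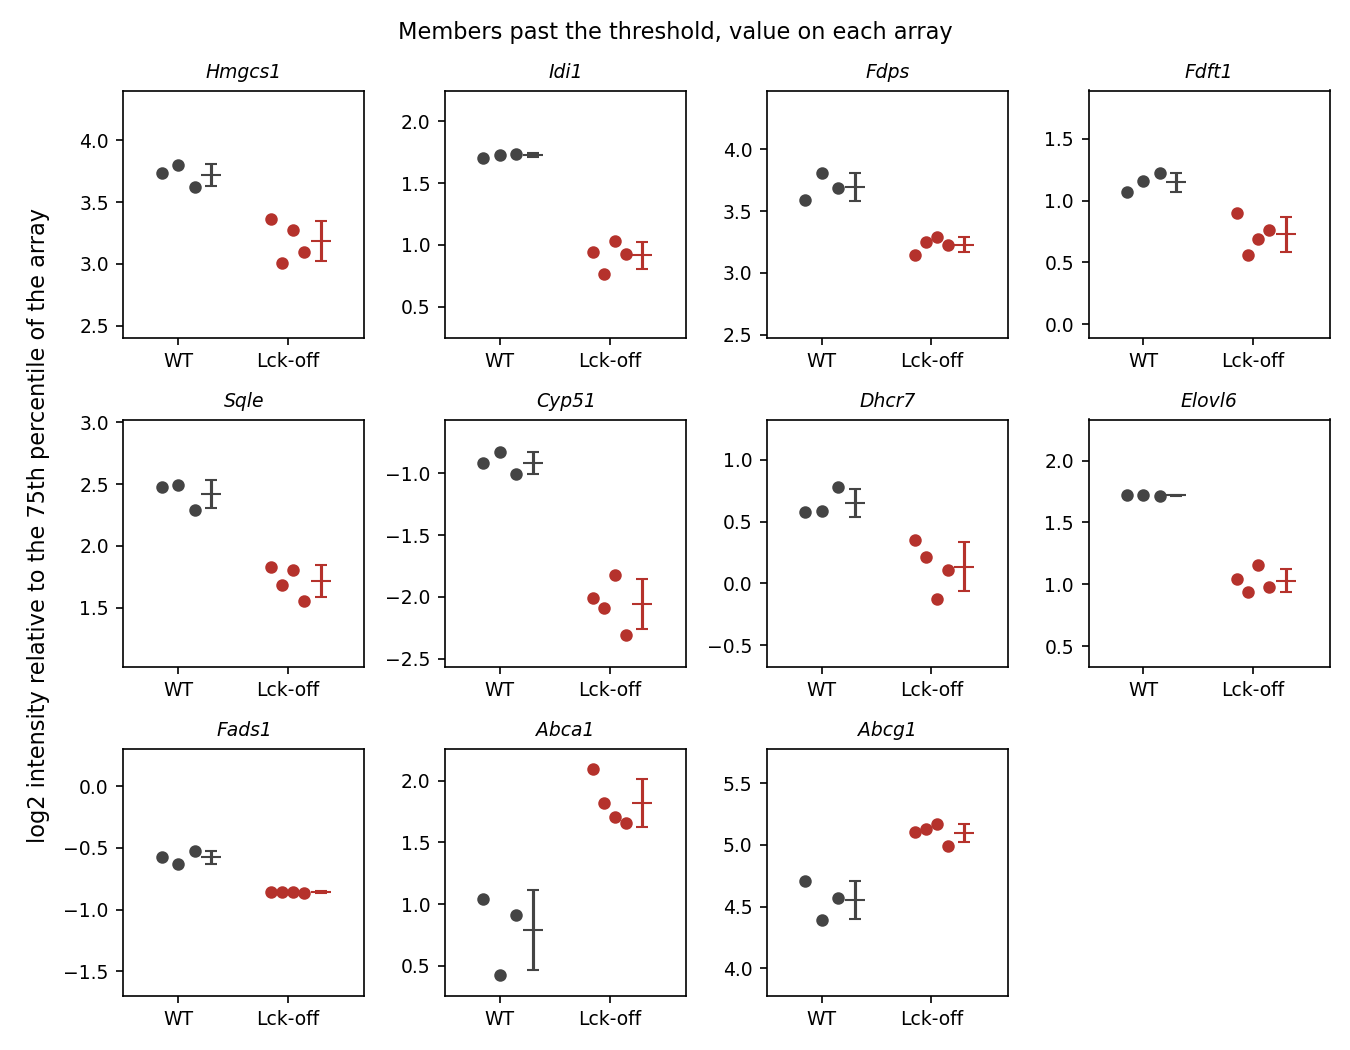
Level of the 11 called genes on each array (points, log2 intensity relative to the array's 75th percentile, y axes of equal span) in 3 WT and 4 Lck-off samples, with mean and SD as bars beside them. In 9 panels all Lck-off points lie below the WT points, and in those of Abca1 and Abcg1 all lie above.

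Of 8 measured genes of fatty acid synthesis 2 fell, Elovl6 and Fads1, and 0 rose. Elovl6, the elongase that takes palmitate to stearate, was 1.72, 1.73 and 1.71 for WT against 1.04, 0.94, 1.16 and 0.98 for Lck-off. The WT arrays were almost equal, and the highest Lck-off array was far below them. Elovl6 fell by 0.69 (SE 0.07, adjusted p = 0.00207), to 62.0% of WT (54.9% to 70.0%). Fads1, a desaturase of polyunsaturated fatty acids, went from -0.57, -0.63 and -0.52 to -0.85, -0.86, -0.85 and -0.87. The shift was small but the arrays of each group lay close together, and Fads1 fell by 0.28 (SE 0.06, adjusted p = 0.0341). Within 5 Mb of the Fads1 probe on chromosome 19, 16 genes were called lower and 9 higher of 206 (12.1%, beside 8.38% of all genes). The same count gave 12.8% of 39 genes around Idi1, 11.8% of 85 around Fdft1 and 13.4% of 290 around Abcg1, and less than the share of all genes around 6 others. The Hmgcs1 probe lies on an unplaced stretch with 2 neighbours, which gives no share. The part of neighbouring sequence in these results was not tested.

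The enzymes that build palmitate did not pass. Acly, which makes cytosolic acetyl-CoA, Acaca, the carboxylase, and Fasn, the synthase, had differences of -0.17, -0.20 and -0.17 (adjusted p = 0.337, 0.171 and 0.412). Acaca alone of these had no overlap between groups, and 1 of its 3 kept probes went the other way (0.17). Scd2, the stearoyl-CoA desaturase gene measured among the 37 genes, had the highest difference of the group, 0.20. It was 3.60, 3.04 and 3.38 for WT against 3.83, 3.41, 3.63 and 3.31 for Lck-off. Its interval, -0.19 to 0.60, included 0. Elovl1 and Elovl5, elongases of very long and of polyunsaturated chains, differed by -0.09 and 0.09.

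No regulator of the programme passed the test. Srebf2, the SREBP of sterol genes, was 1.44, 1.49 and 1.41 for WT against 1.41, 1.12, 1.11 and 1.22 for Lck-off. The groups met at Lck-off replicate 1, which equalled the lowest WT array to 2 decimals. The difference was -0.23 (95% interval -0.44 to -0.01, adjusted p = 0.209), and its other kept probe gave -0.24. Srebf1, the SREBP of fatty acid genes and itself a target of LXR, was -0.62, -0.70 and -0.58 for WT against -0.45, -0.75, -0.55 and -0.59 for Lck-off. The arrays of both groups were mixed, with a difference of 0.05 (-0.16 to 0.25). Scap, the escort that carries SREBP to the Golgi, was 4.74, 4.61 and 4.78 against 4.54, 4.82, 4.60 and 4.71, a difference of -0.04 (-0.26 to 0.17). SREBP activity is set by cleavage of the protein, which arrays do not measure.

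Insig1 and Insig2 retain Scap in the endoplasmic reticulum, and Insig1 is itself a strong SREBP target. Insig1 had the highest SD of the 35 measured members in both groups (0.46 in WT, 0.45 in Lck-off). It was -1.54, -0.62 and -0.98 for WT against -1.90, -1.31, -1.54 and -0.83 for Lck-off, so the groups overlapped widely. Its difference of -0.35 had an interval of -1.04 to 0.35, which takes in 0 and the difference of every measured synthesis gene except Cyp51. Insig2 was 1.21, 1.22 and 1.30 for WT against 1.49, 1.18, 1.46 and 1.20 for Lck-off, a difference of 0.09 (-0.15 to 0.33). Stard4, a carrier of cholesterol between membranes, was 0.85, 1.04 and 0.80 for WT against 0.68, 0.63, 0.71 and 0.62 for Lck-off. All Lck-off arrays were below WT, but the difference of -0.24 did not pass (adjusted p = 0.142). The second kept probe of Stard4, which was dimmer, gave -0.81, so the probes disagreed on the size.

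Both exporters rose. Abca1 hands cholesterol to lipid-poor apolipoprotein. It was 1.04, 0.42 and 0.91 for WT against 2.10, 1.81, 1.71 and 1.66 for Lck-off. WT replicate 2 was lowest, and the lowest Lck-off array was still above the highest WT array. Abca1 rose by 1.03 (SE 0.17, adjusted p = 0.0122), to 2.04-fold the WT level (95% interval 154% to 270% of WT). Abcg1, which passes cholesterol to mature lipoprotein particles, was 4.70, 4.39 and 4.57 for WT against 5.10, 5.13, 5.17 and 4.99 for Lck-off. Again WT replicate 2 was lowest and the groups did not overlap. Abcg1 rose by 0.54 (SE 0.09, adjusted p = 0.0132), to 1.46-fold.

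The LXR genes themselves did not pass the test. Nr1h2 (LXR beta) was 5.46, 5.48 and 5.42 for WT against 5.34, 5.65, 5.24 and 5.35 for Lck-off, a difference of -0.06 (95% interval -0.30 to 0.19). Lck-off replicate 2 was above every WT array and the other three below. Nr1h3 (LXR alpha) was -1.23, -1.31 and -1.17 against -1.15, -1.41, -1.02 and -1.14, a difference of 0.06 (-0.19 to 0.30), with the arrays of the groups mixed. Nr1h3 and Abca1 are also strongly expressed by macrophages. Of 22 macrophage, monocyte and neutrophil markers on the array, 11 were kept and C1qb was called (higher, 0.59). All 11 kept markers had a difference above 0, with a median of 0.64. Among those not called, C1qc had 1.75, Mpeg1 1.49, C1qa 1.38 and Fcer1g 0.90 (adjusted p = 0.0932, 0.0865, 0.0734 and 0.220), and Mpeg1 had every Lck-off array above every WT array. On each of the 7 arrays Fcgr3, Mrc1, Timd4 and Vsig4 were not well above background. The summed linear level of the list, in multiples of the 75th percentile, was 42.8 to 60.0 in WT and 53.6 to 65.3 in Lck-off, most of it Itgam (difference 0.14). Without Itgam it was 6.23, 9.55 and 5.59 for WT against 9.31, 12.4, 8.73 and 8.28 for Lck-off, where WT replicate 2 was above 3 of the 4 Lck-off arrays. Of 10 kept dendritic cell markers 9 had a difference above 0, with a median of 0.97, and Bst2 was called. This list summed to 469 to 521 in WT and 578 to 629 in Lck-off, and to 2.08 to 5.07 and 3.40 to 13.6 without Bst2, Ccr7 and Siglech. Siglech and Ccr7, with mean levels of 8.00 and 7.72 in WT, lay near the T cell marker Cd3e at 8.06. Bst2 was at 4.94 in WT and 6.67 in Lck-off. Most of the full sum is these 3 genes, so it cannot be read as dendritic cells alone. Clec9a and Clec10a likewise were not well above background on each array. In limma with the replicate number as a block, Mpeg1 and Fcer1g passed (adjusted p = 0.0339 and 0.0397). So did H2-Ab1, H2-Eb1, Cd74 and Bst2 of the dendritic cell list (adjusted p = 0.0204, 0.0247, 0.0284 and 0.0325). The other kept markers of both lists did not pass there, C1qb among them (adjusted p = 0.0561). The part of cells of these lists in the rise of Abca1 and Abcg1 was not tested. Lck-off replicate 2 was the highest of the 7 arrays for both marker sums, with and without Itgam, Bst2, Ccr7 and Siglech. Without this array 6 members fell and 2 rose, against 9 and 2 with all arrays. Over all genes 708 fell and 573 rose without it, against 834 and 693.

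**Figure D3:**
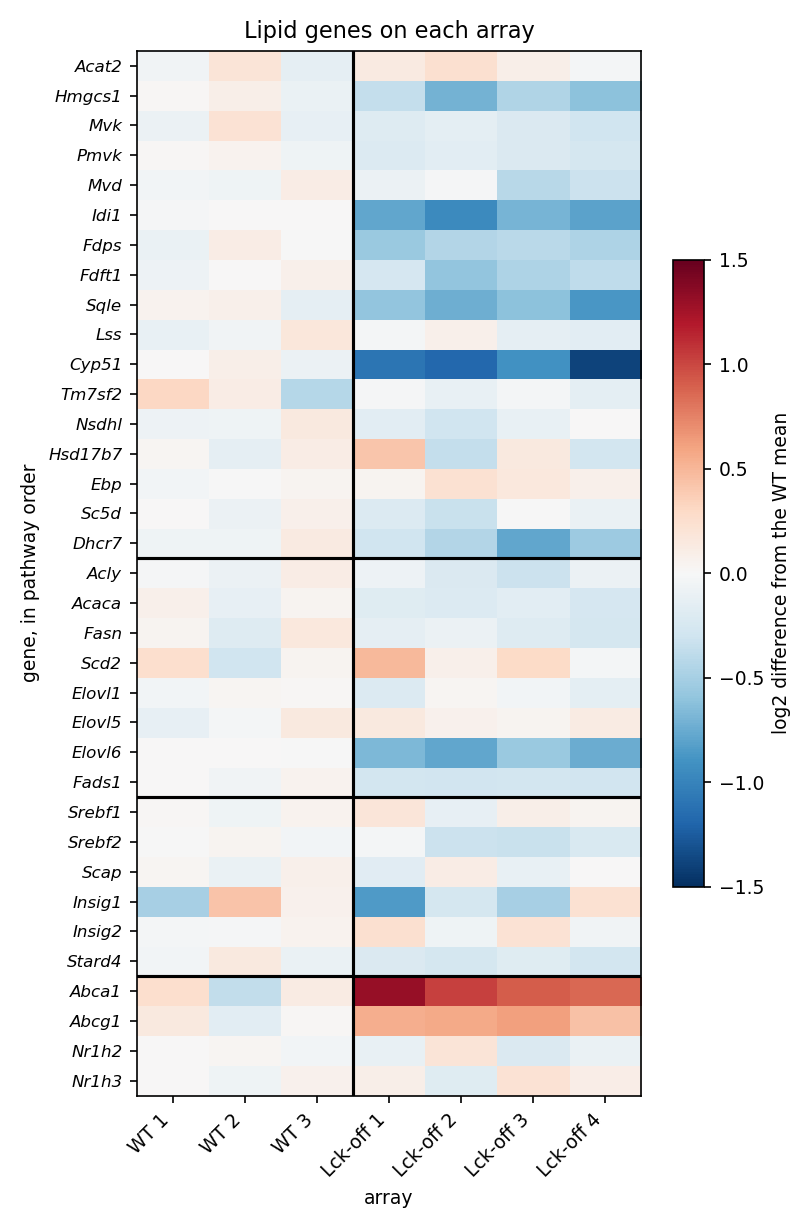
Log2 difference of each gene from its WT mean (colour, blue lower and red higher) on the 3 WT and 4 Lck-off arrays (columns), with genes in pathway order (rows) and lines between the gene groups. Idi1, Sqle, Cyp51 and Elovl6 are blue and Abca1 and Abcg1 red on all 4 Lck-off arrays, while Insig1 changes colour within each group.

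Synthesis and export can be set side by side on each array. The median deviation of the 25 synthesis genes from their WT means was -0.02, -0.01 and 0.04 on the WT arrays and -0.19, -0.21, -0.22 and -0.27 on the Lck-off arrays. The mean deviation of Abca1 and Abcg1 was 0.20, -0.27 and 0.07 for WT against 0.93, 0.80, 0.76 and 0.65 for Lck-off. Export minus synthesis was therefore 0.21, -0.26 and 0.02 for WT against 1.12, 1.01, 0.98 and 0.92 for Lck-off, a description with no test, since these genes were chosen with earlier results known. The lowest Lck-off array differed from gene to gene. Of the 9 genes that fell, the lowest array was Lck-off replicate 2 for 4 genes, replicate 4 for 3, and replicates 1 and 3 for 1 each.

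**Figure D4:**
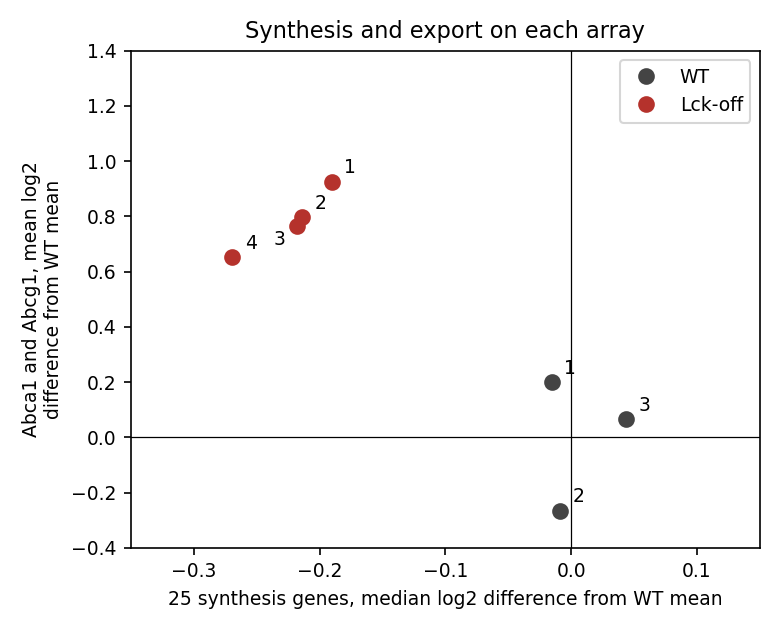
Median log2 deviation of the 25 synthesis genes (x axis) and mean log2 deviation of Abca1 and Abcg1 (y axis) from their WT means, 1 point per array, numbered by replicate. The 4 Lck-off arrays lie at -0.27 to -0.19 and 0.65 to 0.93, apart from the 3 WT arrays around 0.

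All 7 arrays lay on 1 slide, in 2 rows by the barcode in the file headers, with both groups in each row. Row 1 held 1 WT array (replicate 3) and 2 Lck-off arrays, and row 2 held 2 of each. The groups of all 11 called genes did not overlap, so their direction within each row was fixed in advance. Only the sizes within rows add to this. Cyp51 differed by -0.95 and -1.29 in rows 1 and 2, Idi1 by -0.84 and -0.79, and Sqle by -0.55 and -0.80. Elovl6 differed by -0.66 and -0.71, Hmgcs1 by -0.48 and -0.54, and Fdps by -0.41 and -0.51. Fdft1 differed by -0.60 and -0.28, Dhcr7 by -0.74 and -0.36, and Fads1 by -0.33 and -0.26. Abca1 differed by 0.85 and 1.15 and Abcg1 by 0.58 and 0.50. With the row as a block Fdft1, Dhcr7 and Fads1 lost their calls (adjusted p = 0.0703, 0.0854 and 0.0537) and the other 8 kept them. Idi1, Sqle, Cyp51, Elovl6, Abca1 and Abcg1 stayed called in all 7 repeats that left out 1 array (adjusted p up to 0.0486 over these 6 genes). Hmgcs1 lost its call in 5 of 7 (adjusted p up to 0.0923), namely without any 1 WT array or Lck-off replicate 3 or 4, and Fdps without WT replicate 2 (adjusted p = 0.0534). Fdft1 and Dhcr7 kept their calls only without Lck-off replicate 1 (adjusted p up to 0.131 and 0.149), and Fads1 lost its call in all 7 (adjusted p = 0.0651 to 0.105).

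Other genes of lipid metabolism, from a list of 60 names, gave a mixed picture. Of 44 measured, 4 fell, 3 rose and 37 did not pass, with a median of 0.04. Over all genes 4.57% were called lower and 3.80% higher. Among those that fell, Tmem97, a sterol-regulated membrane protein that binds sterols, went from 1.07, 1.10 and 0.98 to 0.19, 0.29, 0.21 and 0.20, a difference of -0.83 (SE 0.07, adjusted p = 0.000782). Its groups were far apart, as for Idi1. Elovl7, an elongase of saturated chains, fell by 0.69 (SE 0.09, adjusted p = 0.00464). Pltp, which transfers phospholipid between lipoproteins and is a target of LXR in other cells, fell by 1.15 (SE 0.14, adjusted p = 0.00366), with -0.15, -0.36 and -0.58 for WT against -1.73, -1.32, -1.36 and -1.64 for Lck-off. Among those that rose, Mylip, an LXR-induced ubiquitin ligase gene, rose by 0.44 (SE 0.10, adjusted p = 0.0345) and Lipa, the lysosomal lipase that frees cholesterol from its esters, by 0.45 (SE 0.09, adjusted p = 0.0204).

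Several genes were read by more than 1 kept probe, 12 in all, and in 11 of them all kept probes shared a direction. Acly gave -0.17 with its brightest probe and -0.44 with the other. Hsd17b7 gave -0.02 and -0.23, and Nsdhl -0.14 and -0.27. Each of the 11 called genes had 1 kept probe, so no second probe bears on those calls. The Cyp51 probe lay on the minus strand at chr5:4081471-4081530, that of Idi1 on the plus strand at chr13:8891524-8891583 and that of Abca1 on the minus strand at chr4:53043944-53044003 (mm9, as the array files give them).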

How the data were processed

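Cy3-labelled total RNA of 3 WT and 4 Lck-off samples was measured on 1-colour Agilent arrays. The deposited scanner files hold intensity from Feature Extraction, version 10.7.3.1, and probe positions on mm9, per the file headers. Processed intensity is background subtracted and detrended within the array, and mean and background intensity are uncorrected. The same software gave the other columns, flags and spot type, per the file headers. The deposited log2 values of each array correlated at 0.999 or more with its log2 mean intensity, so they were not background subtracted. Their columns had medians of 6.34 to 6.35, so arrays had been scaled alike. The submitters' processing notes name limma, without its steps.

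Here log2 processed intensity minus each array's 75th percentile over non-control spots was used. Non-uniform spots (10) were set to missing and spots of a probe averaged. Of 55681 probes, 25578 were well above background on at least 3 arrays, and the brightest per gene name gave 18231 genes. Groups were compared with limma 3.58.1 (R 4.3.3), two-sided, with Benjamini-Hochberg adjustment over all genes. Standard errors rest on 3 and 4 arrays, and p-values measure the spread between these samples. Members and lists were chosen with earlier results of these data known. Values on every array are given for called members, regulators and export genes, others by range or difference, with the extremes of each group, and genes of the wider list by count, with values for called ones. Neighbour counts, export minus synthesis and the shortened marker lists were chosen after seeing the data. The alternatives tried were other scalings, background correction, filters, probe averaging, the deposited table, blocks, moderation and arrays left out. The fit was tested on simulated data. Some genes of the wider list are not reported here by name.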

Additional observations from a re-analysis of the deposited data

How the results depend on the processing

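No called member changed direction under any alternative run. With normexp background correction, quantile normalization, the deposited table, the stricter filter, averaged probes, the slide row as a block, or trend and robust moderation, the counts of members that fell (9 with all arrays) or rose (2) stayed within 1.5 times. They were 4 and 1 with array medians as the scale, 4 and 0 with no filter on dim probes, and 0 and 0 within slide row 1 or row 2 alone, where row 1 has 1 WT array, assumed to vary like the Lck-off arrays. At an unadjusted p under 0.05 limma gave 6 and 2 members in row 1 (973 and 1547 of all genes) and 9 and 2 in row 2 (1635 and 1076 of all genes). The median scale ended the calls of Hmgcs1, Fdps, Fdft1, Dhcr7, Fads1 and Abcg1, and the unfiltered fit, which adjusts over more genes, those and that of Abca1 (2 higher at an unadjusted p under 0.05). Over all genes the same settings gave 478, 359, 20 and 0 lower and 440, 358, 85 and 0 higher, against 834 and 693. Other scalings moved the median of all genes by at most 0.02. The labels do not say whether replicate numbers pair the samples. Deviations from the group means correlated at 0.106, 0.05 and -0.01 between arrays of the same number, which does not settle it. For both shortened marker sums replicate 2 was the highest array of each group (9.55 in WT and 12.4 in Lck-off for macrophages, 5.07 and 13.6 for dendritic cells). With the replicate block 2 members fell (Idi1 and Cyp51) and 0 rose (3 at an unadjusted p under 0.05), and 181 and 193 genes of all.

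Leaving out 1 array gave 4 to 8 members lower and 2 to 2 higher, and 473 to 759 and 449 to 646 over all genes. The group medians then ran from -0.28 to -0.19 for cholesterol synthesis, -0.24 to -0.11 for fatty acid synthesis, -0.14 to -0.09 for regulators and 0.24 to 0.34 for export and LXR. Cholesterol synthesis had a median of -0.21, and -0.32 and -0.28 within rows 1 and 2. Fatty acid synthesis had -0.17, and -0.26 within row 1 and -0.13 with probes averaged. The cause was not tested. All 35 measured members were well above background on every array, while Scd1 and Fads2 were not and have no difference. The size of the Cyp51 fall still changed with the setting. It was as small as -0.67 among the alternatives, against -1.14 in the main fit and -1.22 to -1.06 with 1 array left out. None of the 35 had a Lck-off array that stood apart by Dixon's criterion.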
